A study of Homo sapiens with 6 samples.

Results

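The collagen genes of HK-2 cells were examined in KO and wild-type (WT) cultures. Every gene whose symbol has the form COL, a number, A and a number was taken, which gave 40 of the 16116 genes in the deposited gene table. HK-2 is an immortalised epithelial line derived from human proximal tubule. Bulk RNA-seq was available for 3 KO libraries, whose genotype label is FAM134B-KO, and 3 WT libraries, and no treatment or time is given for either group. The title of the series also names FAM134B (current symbol RETREG1), whereas its design text names TAX1BP1. The sources used here do not say whether the KO cells are 1 clone or a pool, nor whether the libraries of a group came from separate cultures. The p-values therefore weigh the difference between groups only against the scatter among these 3 libraries of a group. In the fitted models that scatter is estimated partly from all genes, and it may be technical. The 40 genes were 9 fibrillar collagens, 6 basement membrane (type IV) collagens, 10 fibril-associated collagens and 15 others.

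Collagens are trimers whose chains wind around each other through repeats of glycine and other residues. Fibrillar collagens form the banded fibres of connective tissue, and fibril-associated collagens sit on the surface of those fibres. Type IV collagen forms the sheet-like network of basement membranes, on which the tubule epithelium of the kidney rests. Chains are hydroxylated and assembled in the endoplasmic reticulum (ER), and FAM134B is an ER-phagy receptor that, together with the chaperone calnexin, is known to send misfolded procollagen to lysosomes.

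Libraries held 16796964 to 17127468 estimated reads, of which collagen genes took 0.558% to 0.567% in KO and 0.458% to 0.481% in WT. RETREG1 had 33, 27 and 28 reads in the KO libraries and 72, 80 and 73 in the WT libraries (log2 fold change -1.33, SE 0.18, adjusted p = 5.32e-07 in edgeR's quasi-likelihood test). TAX1BP1 was at 151 ± 9.45 CPM (counts scaled to library size) in KO and 156 ± 6.30 CPM in WT (SD, n = 3 each; adjusted p = 0.533 in edgeR). Of 12 proximal tubule markers 11 were in the table. GGT1 and PAX8 averaged 188 and 271 TPM (transcript levels scaled per length) in KO and 191 and 228 TPM in WT, whereas LRP2, CUBN, SLC34A1, AQP1 and ANPEP averaged at most 0.08 TPM in either group. Of 6 epithelial markers 4 were called lower and EPCAM higher, where 36.8% of all tested genes were called. KRT19, among the 4 lower, had 1, 0 and 1 reads in KO and 45, 69 and 46 in WT. It passed the low-count filter only through its WT libraries, so its call had to lean that way. CDH1 averaged at most 0.0233 TPM in either group and was not tested. The summed level of the 6 epithelial markers was 1155 to 1182 TPM in KO and 1574 to 1662 TPM in WT. The tubule marker CDH6 stood at 8.32 ± 0.842 TPM in KO and 46.5 ± 0.911 TPM in WT. The part of these shifts in the collagen results was not tested, and in bulk RNA fewer cells of a type and less RNA per cell cannot be told apart.

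All 3 tested chains of type IV collagen were higher in KO, and 4 of the 6 tested fibrillar chains were lower. COL7A1 was 1.81-fold higher, and COL14A1, with 6, 2 and 2 reads in WT, had a fitted fold of 169 that depends on those few reads. Of the 40 genes, 20 had enough reads to be tested (filterByExpr, a minimum of 10 reads). Of these 20, 8 were higher and 9 lower in KO at an adjusted p under 0.05 in edgeR, and 3 were not called. Over all 12702 genes tested, 18.7% were called higher and 18.1% lower, together 36.8%. The KO and WT libraries did not overlap in 17 of the 20 collagens and in 46.3% of all tested genes. With a change of at least 2-fold as well, 1 collagen was higher (COL14A1) and 1 lower (COL11A1), against 2.02% and 2.75% of all genes. Among genes at 5 CPM or more in either group, 37.7% of all genes were called, 19.7% higher and 18% lower. Of the 14 collagens at that level 13 were called, 8 of them higher and 5 lower. The median log2 fold change of the 20 tested collagens was -0.23, against 0.00 over all tested genes. COL14A1 passed the filter only through its KO libraries and COL11A1 only through its WT libraries. In a test against a 1.5-fold change, 2 collagens passed, COL7A1 (adjusted p = 2.07e-05 in edgeR) and COL14A1 (adjusted p = 7.75e-21 in edgeR), and both were higher in KO.

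**Figure D1:**
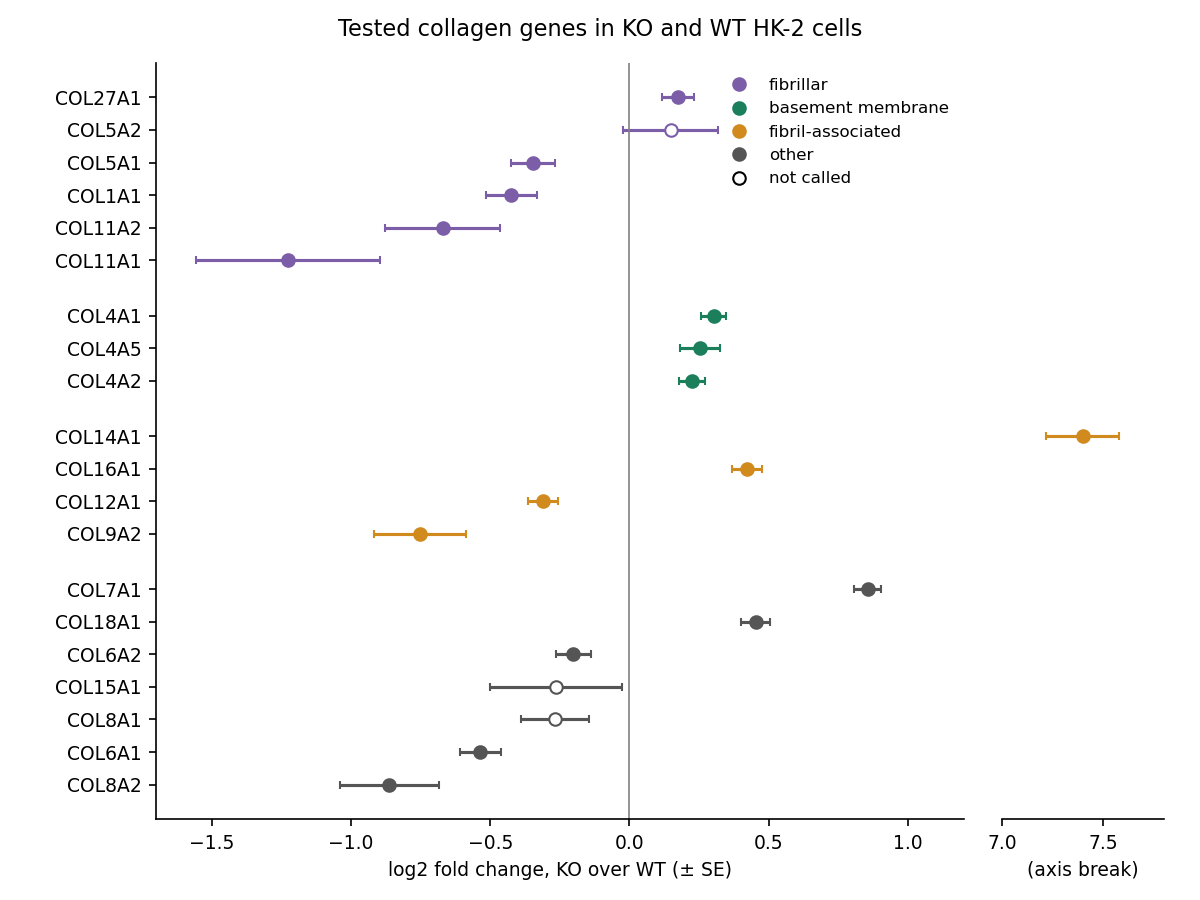
Log2 fold change of KO over WT for the 20 tested collagen genes, grouped by class, with the standard error as a bar; open circles did not pass the threshold and the axis is broken to reach COL14A1. All 3 tested type IV chains lie to the right of 0 and 4 of the 6 tested fibrillar chains were called to the left, while COL14A1 stands alone at 7.40.

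The collagen transcripts of these cells were mostly those of basement membranes. In deposited TPM, COL4A2, COL4A1, COL18A1 and COL7A1 together held 89.1%, 88.5% and 88.5% of the summed collagen level in the KO libraries and 86.4%, 86.6% and 86% in the WT libraries. COL4A2 ranked 215 of 16116 genes by mean TPM in KO and 248 in WT, and COL4A1 ranked 238 in KO and 295 in WT. The main fibre-forming chains of connective tissue were scarce by comparison. COL1A1 stood at 5.73 ± 0.322 TPM in KO and 7.87 ± 1.01 TPM in WT, while COL1A2 and COL3A1 had 1 and 0 reads in the KO libraries together and 2 and 1 in the WT libraries together.

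**Figure D2:**
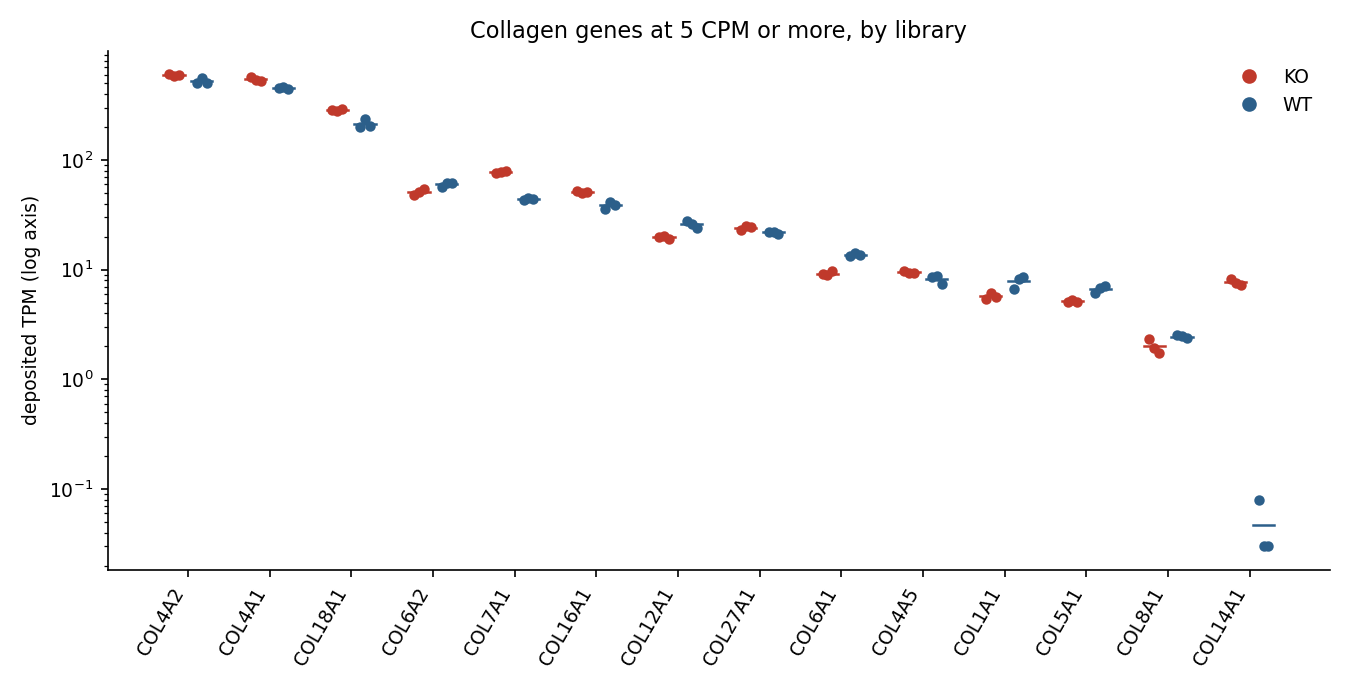
Deposited TPM on a log axis for the 14 collagen genes at 5 CPM or more in either group, with 3 KO libraries (red) left of 3 WT libraries (blue) for each gene and a line at each mean. COL4A1 and COL4A2 lie between 442 and 605 TPM in all libraries, and COL14A1 lies at 7.20 to 8.24 TPM in KO and 0.03 to 0.08 TPM in WT.

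Type IV collagen rose modestly. COL4A1 and COL4A2 encode the chains of the ubiquitous type IV trimer, the main network of most basement membranes. COL4A1 had 1935, 1874 and 1870 CPM in the KO libraries and 1541, 1533 and 1531 CPM in the WT libraries. Every KO library was above every WT library, and the log2 fold change was 0.30 (SE 0.045, adjusted p = 4.10e-06 in edgeR). COL4A2 had 2014, 2009 and 2083 CPM in KO and 1697, 1809 and 1724 CPM in WT, again without overlap, with a log2 ratio of 0.22 (SE 0.046, adjusted p = 0.000332 in edgeR). Their fold changes were 1.23 and 1.17, small changes that were still larger than the spread between libraries.

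COL4A1 and COL4A2 lie head to head on chromosome 13 and are read in opposite directions from a shared promoter. They are shown here because both chains rose and the stretch between their starts serves both. In RefSeq's table for GRCh38.p14 the start of COL4A1 (minus strand) lies at 110307157 and that of COL4A2 (plus strand) at 110307284, with 126 bases between. The sequence, on the plus strand at chr13:110307158-110307283, holds 1 CCAAT box (CCAAT) and 1 GC box (GGGCGG), both in capitals, and 80.2% of its bases are G or C. GENCODE release 29 places some starts of both genes inside this stretch.
COL4A1-COL4A2: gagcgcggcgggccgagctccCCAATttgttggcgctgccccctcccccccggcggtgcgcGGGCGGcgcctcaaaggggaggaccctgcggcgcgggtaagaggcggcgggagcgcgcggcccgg

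COL4A5, a chain of the trimer found in the glomerular and some tubular basement membranes, had 32.29, 32.58 and 33.13 CPM in KO and 28.97, 27.90 and 25.36 CPM in WT. The KO libraries were all higher, and the log2 fold change was 0.25 (SE 0.071, adjusted p = 0.00596 in edgeR). Without WT replicate 3 the adjusted p in edgeR was 0.0571, and limma on TPM or FPKM gave 0.0823 to 0.133. Its partner chains stayed below the filter. COL4A6, which lies head to head with COL4A5 on the X chromosome, had 6, 13 and 11 reads in KO and 5, 3 and 5 in WT. COL4A3 had 5 reads in the KO libraries together and 0 in the WT libraries, and COL4A4 had 17 in KO and 6 in WT. All 6 type IV genes therefore had more reads in KO, but those of COL4A3, COL4A4 and COL4A6 were too few for the test.

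COL7A1 and COL18A1 were also higher in KO, and COL15A1 was not called. COL7A1 encodes the anchoring fibrils that tie epithelial basement membranes to the matrix below. It had 370.6, 387.1 and 399.9 CPM in KO and 212.2, 211.4 and 216.7 CPM in WT. The lowest KO library was far above the highest WT library, with a fold change of 1.81 (log2 fold change 0.85, SE 0.049, adjusted p = 4.80e-14 in edgeR). COL18A1, whose product binds basement membranes through heparan sulphate chains and releases the fragment endostatin, had 787.9, 801.6 and 850.2 CPM in KO. In WT it had 558, 637.2 and 585.3 CPM, which gave a fold change of 1.37 (log2 fold change 0.45, SE 0.052, adjusted p = 4.71e-08 in edgeR). COL15A1, the other member of the same multiplexin family, stood at 1.57 ± 0.172 CPM in KO and 1.88 ± 0.562 CPM in WT, and its interval ran from -0.75 to 0.22 on the log2 scale (adjusted p = 0.415 in edgeR).

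The promoter of COL7A1 is printed because this gene had the largest fold change among collagens at 5 CPM or more in both groups, and that of COL12A1 because it was the most abundant collagen by CPM among those that fell. Each gives the 250 bases before the RefSeq start in GRCh38.p14, on the strand of the gene. Capitals mark GC boxes (GGGCGG) and TATA boxes (TATAAA), each on either strand. Neither stretch holds a CCAAT on either strand. The COL7A1 stretch, at chr3:48595330-48595579 on the minus strand, has 3 GC boxes and 1 TATA box read on the opposite strand. The COL12A1 stretch, at chr6:75206054-75206303 on the minus strand, has 1 GC box.
COL7A1: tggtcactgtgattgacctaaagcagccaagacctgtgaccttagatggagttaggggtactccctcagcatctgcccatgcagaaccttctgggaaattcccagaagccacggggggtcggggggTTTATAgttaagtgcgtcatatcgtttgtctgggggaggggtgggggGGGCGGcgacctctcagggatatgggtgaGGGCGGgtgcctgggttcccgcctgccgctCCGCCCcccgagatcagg
COL12A1: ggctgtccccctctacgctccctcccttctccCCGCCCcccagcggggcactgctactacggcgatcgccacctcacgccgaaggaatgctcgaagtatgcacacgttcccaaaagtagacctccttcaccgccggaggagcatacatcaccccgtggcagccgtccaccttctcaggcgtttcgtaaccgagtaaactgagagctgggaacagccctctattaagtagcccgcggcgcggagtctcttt

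RefSeq promoters were found for 29 of the 40 genes, 41 starts in all. A GC box lay in 23 of these 41 stretches of 250 bases, a CCAAT in 11 and a TATAAA in 7. Over all 35116 stretches of the same length in the table, the shares were 42.6%, 32% and 10.7%. These matches describe letters, not bound sites.

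Fibrillar collagens were mostly lower. COL1A1, a chain of the most common fibre collagen, had 16.56, 19.08 and 18.05 CPM in KO and 20.59, 24.58 and 26.90 CPM in WT. The groups did not overlap, and COL1A1 fell by 0.42 on the log2 scale (SE 0.091, adjusted p = 0.000461 in edgeR). COL5A1, whose chain helps to set the thickness of fibres, had 22.16, 23.72 and 23.27 CPM in KO and 26.69, 29.12 and 32.13 CPM in WT. Its fold change was 0.787 (log2 fold change -0.35, SE 0.078, adjusted p = 0.000756 in edgeR). COL5A2, the partner chain of COL5A1, was not called, at 3.43 ± 0.617 CPM in KO and 3.10 ± 0.108 CPM in WT, with an interval of -0.20 to 0.50 on the log2 scale (adjusted p = 0.534 in edgeR).

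The chains of type XI collagen, a minor fibre component best known from cartilage, were low and fell. COL11A1 had 9, 9 and 8 reads in KO and 24, 13 and 25 in WT, a log2 ratio of -1.23 (SE 0.33, adjusted p = 0.00427 in edgeR). COL11A1 passed the low-count filter only through its WT libraries, so its call had to lean that way. On log2 of TPM or FPKM plus 1, where low genes are compressed, limma gave -0.24 and -0.15 and no call (adjusted p = 0.0742 and 0.0893). COL11A2 had 33, 25 and 53 reads in KO and 57, 63 and 59 in WT. KO replicate 3 lay close to the WT libraries, and the log2 fold change was -0.67 (SE 0.21, adjusted p = 0.0114 in edgeR). It was -0.45 without KO replicate 2 and -0.64 without WT replicate 2, neither called (adjusted p = 0.0961 and 0.0543 in edgeR), and -1.02 without KO replicate 3. The transcript table repeats models of COL11A2, as for near-identical copies of the locus, so its counts are uncertain. Of 5 chondrocyte and neural crest markers, MATN3 was called lower, at 6.66 ± 0.359 TPM in KO and 11.4 ± 1.13 TPM in WT (adjusted p = 6.97e-07 in edgeR), SOX9 was not called, and ACAN and SOX10 were near 0. The list summed to 9.74 to 9.94 TPM in KO and 13.65 to 17.85 TPM in WT, and its part in the values of COL11A1, COL11A2 and COL9A2 was not tested. COL27A1 went the other way. It encodes a fibrillar collagen of cartilage and other tissues and was the most abundant fibrillar chain here, at 71.25, 79.25 and 78.60 CPM in KO and 68.33, 67.16 and 67.53 CPM in WT. The log2 fold change was 0.17 (SE 0.058, adjusted p = 0.0184 in edgeR). That call was lost without KO replicate 2 or 3 or WT replicate 2 or 3 (adjusted p = 0.127, 0.0591, 0.0610 and 0.0527 in edgeR) and in limma on TPM or FPKM (0.0900 to 0.123). COL24A1, another fibrillar chain, was below the filter with 7 reads in KO and 33 in WT.

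Fibril-associated collagens went in both directions. COL14A1, whose product binds fibres in tendon, skin and other dense tissues, had 606, 569 and 553 reads in the KO libraries and 6, 2 and 2 in the WT libraries. The groups were far apart, at 34.3 ± 1.68 CPM in KO and 0.196 ± 0.135 CPM in WT, a log2 ratio of 7.40 (SE 0.18, 95% interval 7.03 to 7.77, adjusted p = 6.36e-22 in edgeR). COL14A1 passed the low-count filter only through its KO libraries, so its call had to lean that way. The WT mean lies near the level of 3 reads (0.175 to 0.178 CPM in WT), so the size of the fold is uncertain. Without WT replicate 1 the log2 ratio was 8.10, outside that interval, and limma on log2 of TPM plus 1 gave 3.05, with COL14A1 called higher in both. At 7.69 ± 0.523 TPM in KO, COL14A1 stood somewhat above COL1A1 (5.73 ± 0.322 TPM) and COL5A1 (5.13 ± 0.101 TPM) in the same libraries. COL14A1 is also known from fibroblasts, and 7 of 9 fibroblast and pericyte markers had a value in the table. Their summed level was 3.84 to 4.89 TPM in KO and 5.77 to 7.87 TPM in WT, mostly RGS5 and ACTA2. PDGFRA and PDGFRB were at or below 0.0667 TPM in both groups. Of the 3 markers tested, RGS5 was called lower in edgeR, and THY1 and ACTA2 were not called.

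COL16A1, a fibril-associated collagen also found near basement membranes, rose in all 3 KO libraries. It had 128, 129.7 and 130.6 CPM in KO and 89.80, 98.79 and 101.1 CPM in WT (log2 fold change 0.42, SE 0.055, adjusted p = 3.86e-07 in edgeR). COL12A1, which binds type I fibres in tissues under tension, fell instead. It had 111.6, 115.2 and 109.9 CPM in KO and 148.9, 135.3 and 133 CPM in WT, a log2 ratio of -0.31 (SE 0.054, adjusted p = 4.23e-05 in edgeR). COL9A2, a chain of cartilage type IX collagen, had 34, 49 and 47 reads in KO and 73, 77 and 72 in WT, a log2 ratio of -0.75 (SE 0.17, adjusted p = 0.000645 in edgeR). The other 6 fibril-associated genes were below the filter, with 0 to 11 reads in the KO libraries together and 0 to 20 in the WT libraries together.

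The 2 tested chains of type VI collagen, which forms beaded filaments around cells, were lower. COL6A3, a further type VI chain, was not in the deposited gene table. COL6A1 had 19.18, 19.38 and 21.37 CPM in KO and 28.15, 29.18 and 29.52 CPM in WT, a log2 ratio of -0.53 (SE 0.075, adjusted p = 1.46e-06 in edgeR). COL6A2 had 78.81, 87.22 and 94.57 CPM in KO and 94.02, 100.4 and 105.2 CPM in WT. KO replicate 3 was level with WT replicate 1, so the groups overlapped, and the log2 fold change was -0.20 (SE 0.062, adjusted p = 0.0120 in edgeR). The call was lost without KO replicate 1, WT replicate 2 or WT replicate 3 (adjusted p = 0.0657, 0.0506 and 0.0669 in edgeR). COL6A5 and COL6A6 had 1 read each, both in KO.

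Of the short-chain collagens that form hexagonal networks, COL8A2 had 37, 29 and 42 reads in KO and 70, 64 and 65 in WT. All KO libraries were lower, with a log2 ratio of -0.86 (SE 0.18, adjusted p = 0.000307 in edgeR). Its partner COL8A1 had 6.55, 5.59 and 5.22 CPM in KO and 7.21, 6.82 and 6.89 CPM in WT. Here too the KO libraries were lower, but the log2 fold change of -0.27 missed the threshold (SE 0.12, adjusted p = 0.0885 in edgeR). It passed without KO replicate 1 (adjusted p = 0.0325 in edgeR). COL10A1, known from the cartilage growth plate, was below the filter with 26 reads in KO and 20 in WT.

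The remaining collagens were scarce. COL17A1, a transmembrane collagen of the hemidesmosomes that fix epithelial cells to the basement membrane, had 1, 0 and 1 reads in KO and 5, 9 and 4 in WT. COL26A1 had 2, 1 and 1 reads in KO and 10, 11 and 9 in WT. COL28A1 had 7 reads in KO and 15 in WT, and the transmembrane chains COL23A1 and COL25A1 had 1 and 5 reads in KO and 0 in WT. With no filter on low counts, edgeR called 4993 of all 16105 genes tested. Among the collagens below the filter, COL17A1, COL24A1 and COL26A1 were then called lower (adjusted p = 0.00421, 0.000834 and 0.000176 in edgeR). In the same fit COL21A1 was called higher, narrowly, on 6 reads in KO against 0 in WT (adjusted p = 0.0486 in edgeR). A library with 0 reads allows up to 0.179 CPM here, the level of 3 reads, so these counts set limits rather than show absence.

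Summed over each class, type IV chains reached 1151 ± 32.5 TPM in KO and 984 ± 41.1 TPM in WT, a ratio of 1.17. Fibril-associated chains summed to 80.8 ± 1.43 TPM in KO and 68.2 ± 2.80 TPM in WT, with COL14A1 and COL16A1 higher and COL12A1 lower. The 15 other collagens summed to 427 ± 9.81 TPM in KO and 337 ± 22.2 TPM in WT. That class held opposite parts, for COL18A1 with COL15A1 had a ratio of 1.33 and type VI chains one of 0.822. Fibrillar chains summed to 36.9 ± 1.32 TPM in KO and 39.1 ± 1.37 TPM in WT, with overlapping libraries, COL27A1 being higher and COL1A1 and COL5A1 lower. Fibrillar collagens were 2.18% ± 0.114 of the summed collagen level in KO and 2.74% ± 0.116 in WT, and type VI collagens 3.57% ± 0.259 in KO and 5.16% ± 0.220 in WT (SD, n = 3 each). All collagens together summed to 1696 ± 29.5 TPM in KO and 1429 ± 65.4 TPM in WT.

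**Figure D3:**
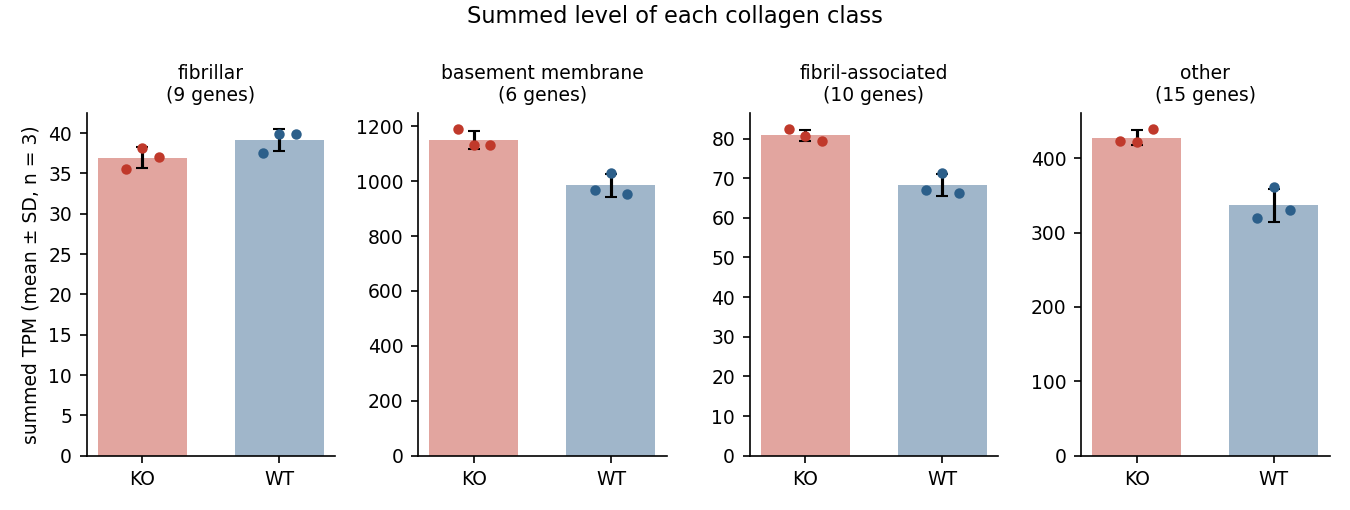
Summed deposited TPM of the 4 collagen classes in KO (red, left) and WT (blue, right); bars are means, error bars are SD over 3 libraries, points are libraries, and each panel has its own axis. The type IV, fibril-associated and other classes are higher in every KO library, whereas the fibrillar class overlaps.

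The balance between chains that share a trimer was compared next. Ratios of TPM were taken within each library for the 5 pairs of chains that both passed the filter, and compared with a two-sided exact permutation test, which cannot go below p = 0.1 with 3 libraries against 3. COL4A1 per COL4A2 was 0.919 ± 0.0321 in KO and 0.870 ± 0.0310 in WT, with overlapping libraries (exact p = 0.2, 0.25 adjusted over the 5 pairs). COL6A1 per COL6A2 was 0.179 ± 0.00845 in KO and 0.228 ± 0.00680 in WT, lower in all KO libraries (exact p = 0.1, 0.167 adjusted). COL5A1 per COL5A2 was 4.92 ± 0.925 in KO and 6.87 ± 0.282 in WT, also without overlap (exact p = 0.1, 0.167 adjusted). COL8A1 per COL8A2 was 2.39 ± 0.505 in KO and 1.55 ± 0.0441 in WT (exact p = 0.1, 0.167 adjusted). COL11A1 per COL11A2 was 0.234 ± 0.0871 in KO and 0.312 ± 0.123 in WT (exact p = 0.5, 0.5 adjusted). No pair could pass the threshold in this design.

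The deposited transcript table listed 143 RefSeq models of the 40 genes, of which 53 from 18 genes were tested. In edgeR 5 were called higher in KO and 1 lower, against 1.14% and 0.99% of all 44030 transcripts tested (2.13% in all). Those higher were NM_001845 of COL4A1, NM_001846 of COL4A2, NM_001379500 of COL18A1, NM_000094 of COL7A1 and NM_021110 of COL14A1, with adjusted p between 0.00159 and 0.0484 in edgeR. NM_001848 of COL6A1 was the one called lower (adjusted p = 0.0279 in edgeR). These counts depended on single libraries. Without KO replicate 1, 2 or 3 they were 2, 1 and 2 higher, without WT replicate 1, 2 or 3 they were 3, 4 and 2 higher, and in each case 0 were lower in edgeR. Limma on log2 of TPM plus 1 gave 5 and 1. In COL14A1, NM_021110 had 322, 409 and 289 estimated reads in KO and 0 in every WT library. This model therefore passed the low-count filter only through its KO libraries, and its call, counted above, had to lean that way.

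Among tested models with 10% or more of their gene's reads, log2 fold changes differed in sign in COL12A1, COL16A1, COL6A2, COL27A1 and COL4A5. No model named in this paragraph passed over all transcripts in edgeR, so the shares are given as values. In COL12A1 the long-form model NM_004370 had 1016 ± 113 estimated reads in KO and 893 ± 114 in WT, whereas the short-form model NM_080645 had 101 ± 49.8 in KO and 416 ± 159 in WT (log2 fold change -2.03, SE 0.47, adjusted p = 0.121 in edgeR). NM_080645 took 3.21%, 8.09% and 4.70% of the COL12A1 reads in KO and 19.2%, 22.7% and 10.4% in WT. Another COL12A1 model, XM_011535434, was also lower, at 344 ± 107 estimated reads in KO and 671 ± 70.6 in WT. Its log2 fold change was -0.96 (SE 0.24, adjusted p = 0.15 in edgeR). Its shares did not overlap either, at 12.4%, 22.9% and 19.2% in KO and 29.6%, 27.8% and 27.6% in WT. In COL6A2, NM_001849 held 61.6% ± 2.21 of the reads in KO and 69.8% ± 3.08 in WT, and NM_058174 held 33.4% ± 2.43 in KO and 26% ± 1.60 in WT. NM_001849 had a log2 fold change of -0.40 and NM_058174 one of 0.15, and neither pair of shares overlapped (adjusted p = 0.123 and 0.755 in edgeR). In COL16A1, XM_011540722 held 41% ± 4.95 of the reads in KO and 34.1% ± 2.36 in WT, with overlapping libraries, and XM_005270481 held 27% ± 4.47 in KO and 37.4% ± 1.17 in WT, without overlap (adjusted p of their reads 0.0646 and 0.966 in edgeR). Shares of each such model of COL27A1 and COL4A5 overlapped between groups. COL5A1, named after its values were seen, had 2 models whose shares did not overlap, although its 3 models all had log2 fold changes below 0. Its NM_000093 took 80.6%, 82.7% and 81.5% of the reads in KO and 72.1%, 80.3% and 66.1% in WT, and its NM_001278074 took 7.03%, 6.67% and 4.30% in KO and 13.8%, 8.95% and 22.1% in WT (adjusted p of their reads 0.579 and 0.204 in edgeR). The split of reads between overlapping models is an estimate, and its error is not in these values.

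**Figure D4:**
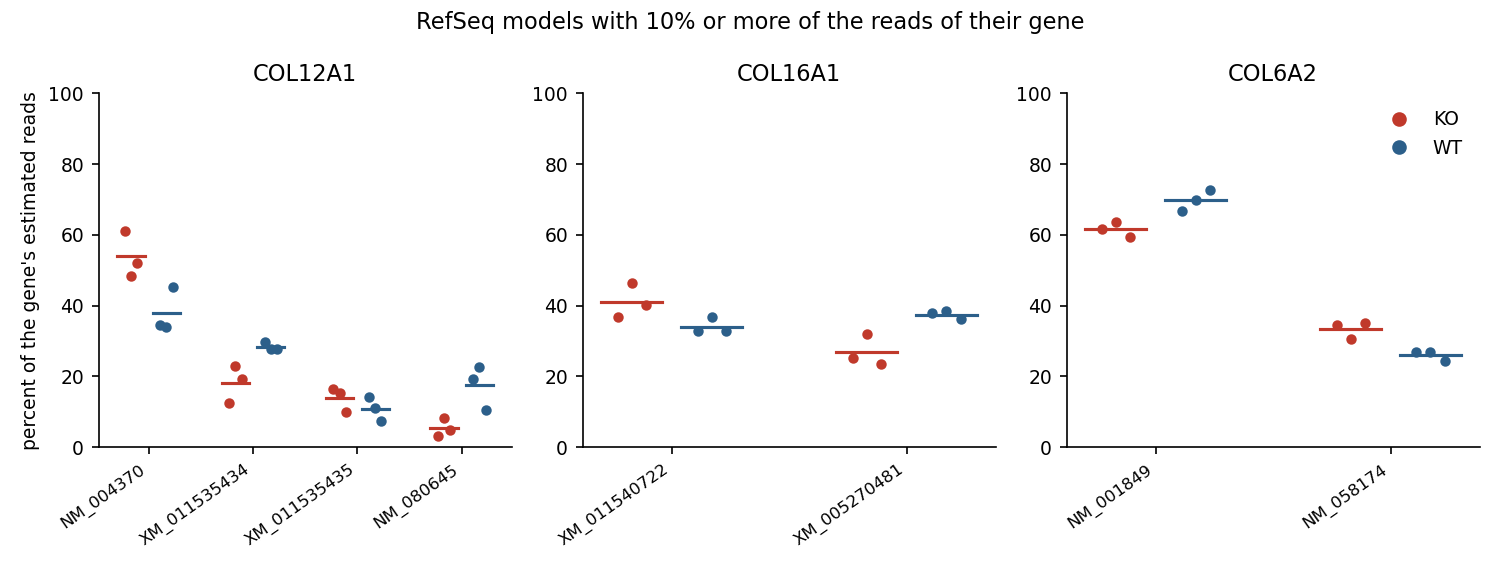
Percent of the estimated reads of COL12A1, COL16A1 and COL6A2 assigned to each RefSeq model that held 10% or more in either group, with 3 KO libraries (red) left of 3 WT libraries (blue) and a line at each mean. NM_080645 of COL12A1 lies below 9% in the KO libraries and above 10% in the WT libraries.

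Gene position was compared with the up to 10 nearest tested genes on each side, in the gene order of GRCh38. COL11A2 on chromosome 6 fell among neighbours of which 17 of 20 were above 0, with a median log2 fold change of 0.58. COL21A1, also on chromosome 6 and below the filter, had a neighbour median of 0.48. COL16A1, COL8A2, COL9A2 and COL11A1 lie on chromosome 1, where neighbour medians were 0.12, 0.18, 0.075 and 0.12, and COL16A1 was higher while the other 3 were lower. COL18A1, COL6A1 and COL6A2 all lie on chromosome 21, and COL18A1 rose while the type VI genes fell, with neighbour medians of -0.05 and -0.07. For COL7A1 on chromosome 3 and COL14A1 on chromosome 8 the neighbour medians were -0.01 and 0.01. COL4A1 and COL4A2 rose among neighbours with a median of -0.08, and COL4A5 on the X chromosome among neighbours with one of -0.14. COL1A1 on chromosome 17 fell among neighbours with a median of -0.13, of which 4 of 20 were above 0.

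Genes that act on collagen were counted by list, against 18.7% higher and 18.1% lower over all tested genes. Of 14 tested enzymes that modify collagen chains, 3 were higher, 5 lower and 6 not called, with a median log2 fold change of -0.11, and the count higher is near the share over all genes. The prolyl 3-hydroxylases P3H2 and P3H3 fell most clearly. P3H2, which acts on type IV collagen among others, was at 42.0 ± 3.01 CPM in KO and 74.8 ± 1.26 CPM in WT (log2 fold change -0.83, SE 0.062, adjusted p = 1.35e-11 in edgeR). P3H3 was at 66.4 ± 3.54 CPM in KO and 94.9 ± 5.35 CPM in WT. The catalytic subunits of prolyl 4-hydroxylase went apart, with P4HA1 at 50.8 ± 2.93 CPM in KO and 39.5 ± 0.720 CPM in WT, and P4HA2 at 32.9 ± 1.30 CPM in KO and 47.5 ± 0.954 CPM in WT. In edgeR the adjusted p of each of these 4 genes was at most 4.38e-05. COLGALT2, which adds galactose to collagen, was low and passed the filter only through its KO libraries, so its fold and call had to lean that way. It was at 0.952 ± 0.274 CPM in KO and 0.372 ± 0.204 CPM in WT (log2 fold change 1.34, SE 0.39, adjusted p = 0.00785 in edgeR).

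Of 22 genes for procollagen folding, ER export and ER-phagy, 3 were higher, 10 lower (RETREG1 among them) and 9 not called (18.7% higher and 18.1% lower over all genes), with a median of -0.11. MIA3 encodes TANGO1, which loads procollagen into transport carriers at ER exit sites, and it rose to 74.0 ± 2.35 CPM in KO, against 54.2 ± 1.71 CPM in WT (log2 fold change 0.45, SE 0.058, adjusted p = 3.58e-07 in edgeR). HSPA5, the chaperone BiP, was at 556 ± 12.6 CPM in KO and 682 ± 26.1 CPM in WT, and PREB, which starts coat assembly at exit sites, at 46.3 ± 2.41 CPM in KO and 56.5 ± 3.12 CPM in WT, both lower (adjusted p = 1.32e-05 and 0.000714 in edgeR). The collagen chaperone SERPINH1 and calnexin (CANX), the partner of FAM134B, were not called. SERPINH1 averaged 316 CPM in KO and 305 CPM in WT, and CANX 699 CPM in KO and 692 CPM in WT (log2 fold changes 0.05 and 0.01, adjusted p = 0.503 and 0.851 in edgeR).

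Of 12 tested procollagen proteases and cross-linking enzymes, 2 were higher, 6 lower and 4 not called, with a median of -0.22. The count higher is near the 18.7% over all genes, where 18.1% were lower. ADAMTS3, a protease that trims the N-terminal ends of procollagens, rose to 86.4 ± 2.19 CPM in KO, against 55.8 ± 2.18 CPM in WT (log2 fold change 0.63, SE 0.057, adjusted p = 5.56e-10 in edgeR). The lysyl oxidase family, which cross-links collagen, held the clearest decreases. LOXL2 was at 382 ± 23.1 CPM in KO and 481 ± 12.9 CPM in WT, LOXL1 at 4.02 ± 0.361 CPM in KO and 7.91 ± 0.996 CPM in WT, and LOXL4 at 0.733 ± 0.123 CPM in KO and 2.14 ± 0.209 CPM in WT. Each had an adjusted p of at most 1.67e-05 in edgeR, while LOX and LOXL3 were not called.

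Collagen receptors had 3 higher, 5 lower and 2 not called of 10 tested, with a median of -0.20, where 36.8% of all genes were called. DDR1, a receptor tyrosine kinase that binds several collagens including type IV, was at 372.3, 409.9 and 423.6 CPM in KO and 190.6, 207.7 and 221.3 CPM in WT. Each KO library was well above each WT library, a log2 ratio of 0.96 (SE 0.057, adjusted p = 1.15e-13 in edgeR). ITGA1, the integrin chain with a preference for type IV collagen, fell to 38.4 ± 2.08 CPM in KO, against 60.2 ± 3.11 CPM in WT (adjusted p = 4.13e-09 in edgeR). CD44 was lower as well, at 126 ± 2.81 CPM in KO and 154 ± 2.70 CPM in WT. GP6, the platelet collagen receptor, was low in both groups and passed the filter only through its WT libraries, with 2, 0 and 1 reads in KO and 32, 40 and 34 in WT. It was at 0.0595 ± 0.0596 CPM in KO and 2.08 ± 0.232 CPM in WT, and was called lower (adjusted p = 7.50e-10 in edgeR).

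Of 8 tested collagen-binding proteins 2 were higher, 3 lower and 3 not called, with a median of 0.00, few genes to set against 18.7% and 18.1% over all genes. HSPG2 encodes perlecan, a proteoglycan of basement membranes, and it rose to 1781 ± 153 CPM in KO, against 1004 ± 42.1 CPM in WT (log2 fold change 0.83, SE 0.055, adjusted p = 1.17e-12 in edgeR). TNXB, which has a near-identical partial copy and is therefore uncertain, was at 9.47 ± 0.143 CPM in KO and 4.25 ± 0.611 CPM in WT. TGFBI, a protein that binds collagens and integrins, fell to 207 ± 6.26 CPM in KO, against 622 ± 31.9 CPM in WT, and THBS1 to 11.6 ± 1.57 CPM in KO, against 16.97 ± 0.570 CPM in WT. The adjusted p of TNXB, TGFBI and THBS1 was at most 3.42e-05 in edgeR. The basement membrane linker genes NID1 and NID2 were not called. Of 8 collagenases and gelatinases 3 were tested and 1 was called, MMP14, a membrane-bound collagenase, at 184 ± 6.83 CPM in KO and 223 ± 10.6 CPM in WT (log2 fold change -0.28, SE 0.052, adjusted p = 8.77e-05 in edgeR).

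**Figure D5:**
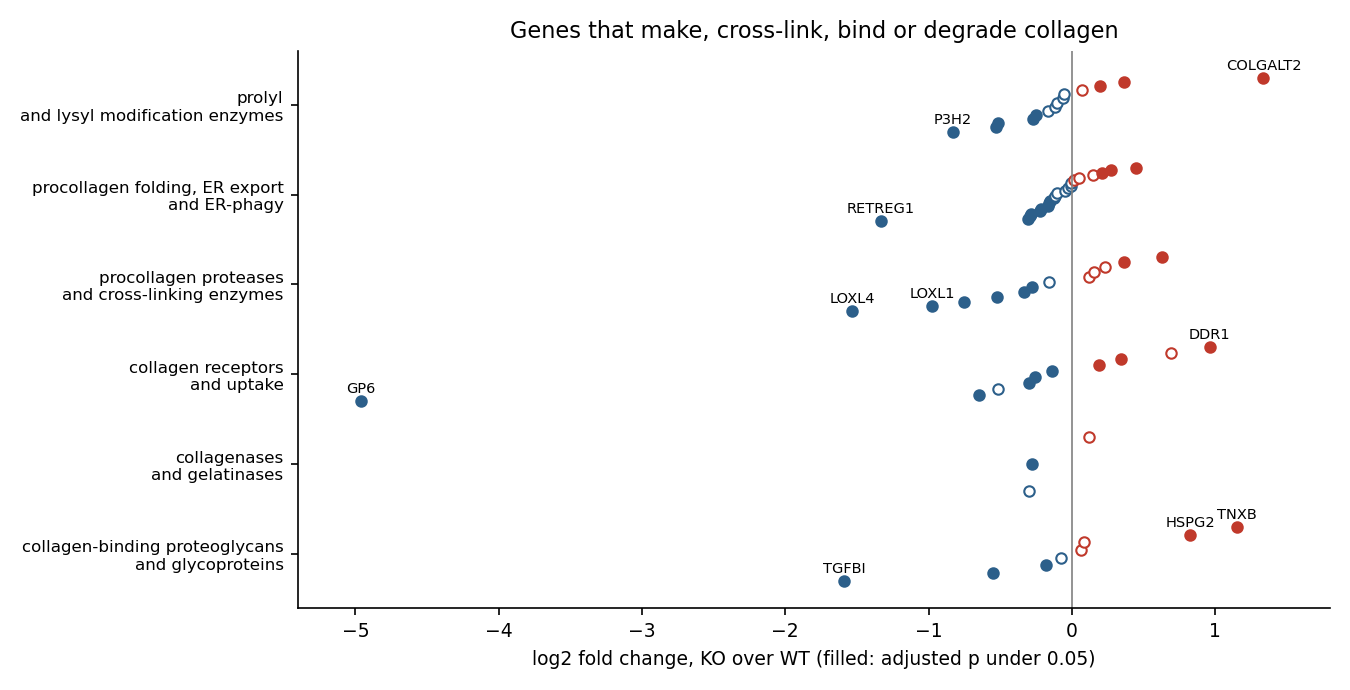
Log2 fold change of KO over WT for 69 tested genes that modify, export, cross-link, bind or degrade collagen, by list; filled circles passed an adjusted p under 0.05, red lies above 0 and blue below, and called genes beyond 0.8 in either direction are named. Of the 69 genes, 13 were called higher and 30 lower, where 18.7% and 18.1% of all tested genes were.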

How the data were processed

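RNA-seq of 3 KO and 3 WT libraries was analysed. The submitters' processing notes name GRCh37 and, with no roles, Cuffdiff 2.2.1, HISAT2 2.0.1, cutadapt 1.9.1, FastQC 0.10.1 and bcl2fastq 2.17.1.14. Which tool counted reads, and whether by strand, is not given in the sources used here, so reads of overlapping or near-identical genes may be shared. The authors deposited estimated counts, TPM values and FPKM values per gene and per RefSeq transcript, per the file headers. Between 14.2% and 15.2% of the estimated counts above 0 were not whole and were rounded for count tests.

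From these, edgeR 4.0.16 in R 4.3.3 fitted all genes (filterByExpr, minimum count 10 and total 15; TMM; robust quasi-likelihood; Benjamini-Hochberg adjustment over all genes tested; threshold 0.05). CPM values are TMM-scaled. SE is the absolute log2 fold change over the root of the F statistic. Alternatives used DESeq2 1.42.0 and limma 3.58.1, other scalings and filters, a replicate block and leaving out each library. Every pair of replicate libraries differed by more than sampling noise (chi-square per degree of freedom at least 2.02). The floor of 3 reads covers counting error only. The edgeR step was also tested on simulated data.

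The collagen members, classes, partner lists and tests were chosen with earlier results of these data known. Collagens at 5 CPM or more, or called with at least a 2-fold change, are given per library, and of each other list up to 4 called genes by smallest adjusted p. COLGALT2, SERPINH1, CANX, LOX, LOXL3, NID1 and NID2 were named after their values were seen. Promoter sequences come from RefSeq (GRCh38.p14), which served here for sequences and gene order only.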

Additional observations from a re-analysis of the deposited data

How the results depend on the processing

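Most collagen results held under the alternatives, and depth limits the 20 genes below the filter, which had at most 46 reads over all libraries. Of the tested collagens' fold changes under the alternatives, 278 kept direction and side of the threshold, 33 lost the call, 1 gained it and 2 reversed. COL15A1 ran from -0.407 without WT replicate 3 to 0.007 without WT replicate 1, and COL5A2 from -0.002 without KO replicate 1 to 0.253 without KO replicate 3, and neither was called with all libraries. The fold of COL14A1 rests on 10 WT reads and ran from 7.14 to 8.10 on the log2 scale when 1 library was left out. The count of collagens called lower was 5 with a minimum of 5 CPM in 3 libraries, where 14 were tested. That filter gave 4073 calls over all 10831 genes. Against a 1.5-fold change 2 were called higher and 0 lower in edgeR, a stricter question by construction, with 668 calls over all 12702 genes. Leaving out 1 library gave 6 to 9 higher and 7 to 11 lower among collagens, of which 21 to 23 were tested. Among the 69 partner genes it gave 11 to 15 higher and 26 to 28 lower. Calls over all genes also moved, from 3801 of 12825 without KO replicate 2 to 4772 of 12820 without KO replicate 1. For transcripts, leaving out 1 library gave 1 to 4 higher and 0 lower, and the replicate block gave 1 and 0, and the cause was not tested. The summed level of other collagens had a log2 ratio of 0.34, 0.47 with summed CPM, where long transcripts weigh more, and 0.21 with COL15A1 and COL18A1 counted as basement membrane. Correlations of the deviations of same-numbered libraries were 0.156, 0.013 and 0.113, so the numbers were not taken to pair the samples. With the replicate block in edgeR, collagens had 8 higher and 9 lower and partner genes 15 and 35. Over all 12702 tested genes the block gave 5947 calls, against 4679 without it, and the reason was not tested.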
